A study of Drosophila melanogaster with 2 samples.

Results

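MicroRNA genes of Drosophila melanogaster were examined for binding of a CG10321-eGFP fusion protein, mapped by chromatin immunoprecipitation sequencing (ChIP-seq). The members were all genes of the Ensembl release 115 annotation with a symbol that starts with mir-, or that is let-7 or ban, with 2 of them left out. The annotation held 260 such genes among 17873 genes, and 258 of them lay on the chromosome arms. The other two, mir-10404-1 and mir-10404-2, lay on the ribosomal DNA sequence and were not searched. In this annotation bantam is called mir-ban, let-7 is mir-let7 and mir-263a is mir-bft (bereft). The samples were whole embryos aged 0 to 24 h of a transgenic fly strain that expressed the CG10321 protein joined to enhanced green fluorescent protein (eGFP), precipitated with an antibody against GFP. There were 2 biological replicates and 1 group, both of the same genotype. Whole embryos of this age range pool all stages and cell types of embryogenesis, and the promoter that drives the transgene is not given in the labels. A control library was not analysed here.

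The files give dm6 positions of peaks and, for each, a signal value from the authors' peak caller. Its scale is not stated, so signals and ranks were read only within a list. A microRNA gene counted as near a peak if the summit was at most 2000 bp from the hairpin gene. The conservative list, which draws on both replicates, held 3006 peaks on the arms, and the replicates' own thresholded lists held 1996 and 2128. Read depth is unknown, and intervals of shares (Wilson, 95%) cover counting error over genes or summits only.

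A microRNA is cut from a hairpin in a longer primary transcript by Drosha with its partner Pasha, and then from the exported hairpin by Dicer-1. It is loaded into Argonaute-1, and bases of its 5' end called the seed pair with target messenger RNAs, which are then repressed through GW182 and the CCR4-NOT deadenylase. Many fly microRNAs lie in introns of protein-coding genes and can share the promoter of that host, and others are made from their own noncoding primary transcripts. Hairpins in a cluster can be cut from the same transcript.

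The microRNAs below are 10 of the 20 genes with summits in all 3 lists, with mir-4968, which shares a seed with mir-980, and mir-92a, which shares one with the mir-310 cluster. They are shown because the seed largely sets which messenger RNAs a product recognises. One mature product of each is given 5' to 3' from RefSeq Release 6 (the dm6 assembly), with the seed, bases 2 to 8, in capitals. RefSeq held a mature product for 258 of the 258 members on the arms.
mir-9377, 3' arm: cUUGAUGGggagaaggagagg
mir-279, 3' arm: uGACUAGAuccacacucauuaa
mir-4962, 3' arm: gACGAUGUagagagugagggaga
mir-317, 3' arm: uGAACACAgcuggugguauccagu
mir-ban, 3' arm: uGAGAUCAuuuugaaagcugauu
mir-4965, 3' arm: uCACACCAcacacucacucacc
mir-1000, 5' arm: aUAUUGUCcugucacagcagu
mir-3645, 3' arm: uUUGGAAGccagcacucaagu
mir-980, 3' arm: uAGCUGCCuugugaagggcuua
mir-4968, 5' arm: uAGCUGCCacgguuuguugcuu
mir-276a, 3' arm: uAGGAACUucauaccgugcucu
mir-92a, 3' arm: cAUUGCACuugucccggccuau
The mir-980 and mir-4968 products share the seed AGCUGCC, and both genes had a conservative summit within 2000 bp. Those of mir-4968 reached the threshold in neither replicate. The mir-317 seed is also carried by mir-4943, which had a conservative summit within 2000 bp but none in the replicate 2 list. The mir-279 seed is also carried by mir-996 and mir-286, and neither of those had a summit within 2000 bp. The mir-92a seed is also carried by mir-92b and by mir-310, mir-311, mir-312 and mir-313, of which mir-92b alone had no summit within 2000 bp. The hairpins from mir-310 to mir-313 lie in the same cluster and share their summits. The mir-92a summit was not in the replicate 1 list. The mir-276a seed is shared with mir-276b, which had no summit within 2000 bp.

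The sequence under the summits is shown for the 6 loci of this kind with the highest signal, as 200 bases of RefSeq Release 6 around the conservative summit. Capitals mark each match to GAGAG or its reverse complement CTCTC, the core of the GAGA repeat.
mir-9377, chrX:12665202-12665401, plus strand: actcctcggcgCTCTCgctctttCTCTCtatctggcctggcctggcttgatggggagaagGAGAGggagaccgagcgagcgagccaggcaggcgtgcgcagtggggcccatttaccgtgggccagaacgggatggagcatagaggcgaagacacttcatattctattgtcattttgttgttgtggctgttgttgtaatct
mir-279, chr3R:29214347-29214546, plus strand: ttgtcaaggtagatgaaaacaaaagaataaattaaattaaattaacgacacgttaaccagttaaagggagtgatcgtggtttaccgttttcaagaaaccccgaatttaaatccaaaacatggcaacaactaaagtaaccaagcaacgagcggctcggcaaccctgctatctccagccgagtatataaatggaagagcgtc
mir-4962, chrX:3779206-3779405, plus strand: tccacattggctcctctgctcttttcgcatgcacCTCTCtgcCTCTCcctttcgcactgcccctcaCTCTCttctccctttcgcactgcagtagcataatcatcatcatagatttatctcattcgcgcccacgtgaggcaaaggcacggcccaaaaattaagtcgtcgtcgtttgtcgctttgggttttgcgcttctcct
mir-317, chr3R:10089242-10089441, plus strand: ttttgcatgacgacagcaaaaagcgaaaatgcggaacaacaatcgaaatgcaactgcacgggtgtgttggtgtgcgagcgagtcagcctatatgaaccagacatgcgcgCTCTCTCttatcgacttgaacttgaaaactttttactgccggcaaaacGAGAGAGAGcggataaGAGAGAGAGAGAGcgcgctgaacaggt
mir-ban, chr3L:640445-640644, plus strand: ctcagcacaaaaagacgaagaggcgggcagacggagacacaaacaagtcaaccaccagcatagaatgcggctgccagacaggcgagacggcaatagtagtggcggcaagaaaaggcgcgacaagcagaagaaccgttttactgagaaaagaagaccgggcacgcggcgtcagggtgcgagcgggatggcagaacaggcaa
mir-4965, chrX:16607962-16608161, plus strand: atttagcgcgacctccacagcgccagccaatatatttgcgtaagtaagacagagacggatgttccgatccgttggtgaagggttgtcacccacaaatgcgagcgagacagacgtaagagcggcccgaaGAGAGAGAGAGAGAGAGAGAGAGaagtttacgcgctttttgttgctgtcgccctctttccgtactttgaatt
The mir-9377 window holds all 52 bases of the hairpin gene, which itself contains CTCTC and GAGAG. The mir-317 and mir-4965 windows hold long GAGA repeats, with 8 and 10 overlapping GAGAG matches. The mir-279 and mir-ban windows hold none, and the mir-279 window holds TATAAA. Within 150 bp to each side of the mir-ban summit, beyond the bases shown, there is a match to GAGAG or CTCTC.

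In the conservative list, 38 of 258 microRNA genes had a summit within 2000 bp, a share of 14.7% (10.9 to 19.6). Replicate 1 alone gave 32 (12.4%) and replicate 2 alone gave 27 (10.5%), a mean of 11.4% ± 1.37 (SD, n = 2). Among genes of comparable size, the short tRNA, snoRNA and snRNA genes of at most 300 bp, 23.7% of 587 had a conservative summit within 2000 bp, 19.8% a replicate 1 summit and 13.5% a replicate 2 summit. The 5' ends of all other genes, of which there were 17536, did so in 15.1%, 11.0% and 11.1% of cases. Taken over the whole span of these other genes, the shares were 20.9%, 15.3% and 15.7%. The bases of the arms within 2000 bp of a summit made up 7.35%, 5.04% and 5.33%. MicroRNA genes thus lay near summits about as often as the 5' ends of other genes did, and less often in each list than the short RNA genes by these counts. The differences were not tested, since clustered genes share their surroundings.

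**Figure D1:**
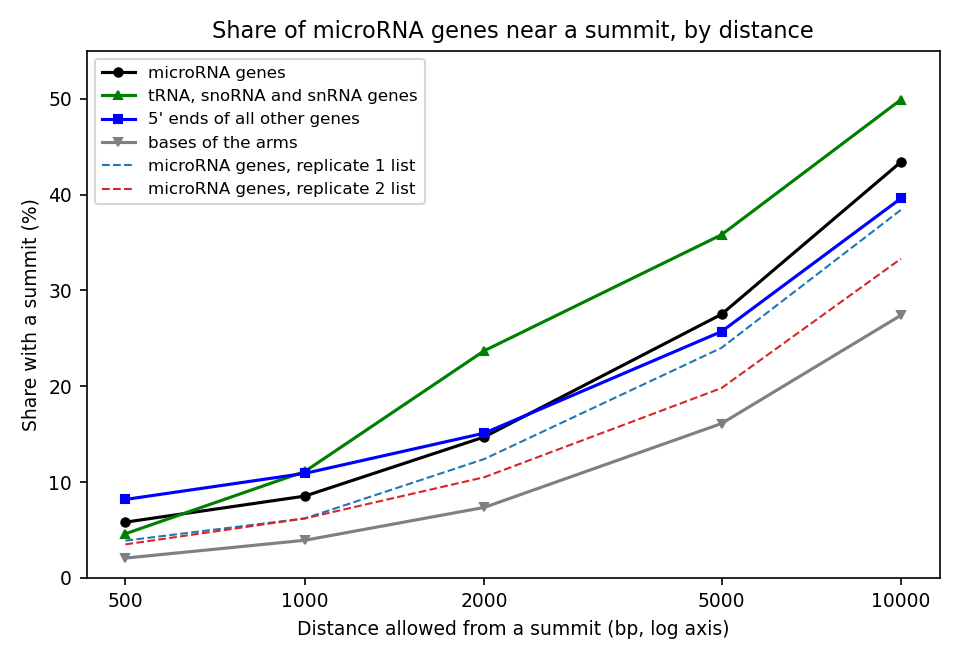
Share of genes or bases (vertical axis, %) with a summit within the distance on the horizontal axis (bp, log scale). Solid lines are the conservative list for microRNA genes, short tRNA, snoRNA and snRNA genes, 5' ends of all other genes and all bases of the arms, and dashed lines are microRNA genes in each replicate list. At 2000 bp microRNA genes (14.7%) lie beside the 5' ends (15.1%), and at 500 bp they lie below them (5.81% against 8.18%).

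The plot of shares against distance shows that the order changed with the window. Within 500 bp, 5.81% of microRNA genes had a conservative summit, against 8.18% of 5' ends and 4.6% of short RNA genes. Within 10000 bp the shares were 43.4%, 39.6% and 49.9%, against 27.4% of bases. The members just inside the 2000 bp limit were mir-317 at 1784 bp, mir-4943 at 1826 bp and mir-4965 at 1868 bp. Those just outside were mir-9372 at 2315 bp, mir-955 at 2316 bp and mir-4978 at 2524 bp.

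Hairpins of 1 strand within 10000 bp of each other were counted as 1 locus, which gave 201 loci, 22 of them with more than 1 hairpin. Of these loci 27 (13.4%, 9.4 to 18.8) had a conservative summit within 2000 bp, 25 a replicate 1 summit and 19 a replicate 2 summit. Over single genes, 20 had a summit in all 3 lists, 8 in the conservative and replicate 1 lists only, 4 in the conservative and replicate 2 lists only, and 6 in the conservative list only. A further 7 appeared in a replicate list but not in the conservative list, and 213 had no summit in any of the 3. By arm, 14 of 55 microRNA genes on 2R, 11 of 56 on 3R, 5 of 58 on X, 4 of 56 on 2L, 4 of 31 on 3L and 0 of 2 on chromosome 4 had a conservative summit. The mir-310 cluster alone supplied 7 of the 14 on 2R.

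The 39 conservative summits beside microRNA genes were of ordinary strength. Their signal ran from 10.2 to 575 with a median of 101, against a median of 100 over all 3006 peaks, and 20 of them were above that median. In all, 280 peaks elsewhere had a higher signal than the strongest of the 39. The replicate lists gave 31 summits with a median of 74.6 against 70.4 over the replicate 1 list, and 24 with a median of 60.4 against 72.6 over the replicate 2 list. Of the 39 summits, 17 overlapped a peak in both thresholded replicate lists, 9 in replicate 1 only, 5 in replicate 2 only and 8 in neither, and all 39 overlapped a ranked peak of some score in each replicate.

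**Figure D2:**
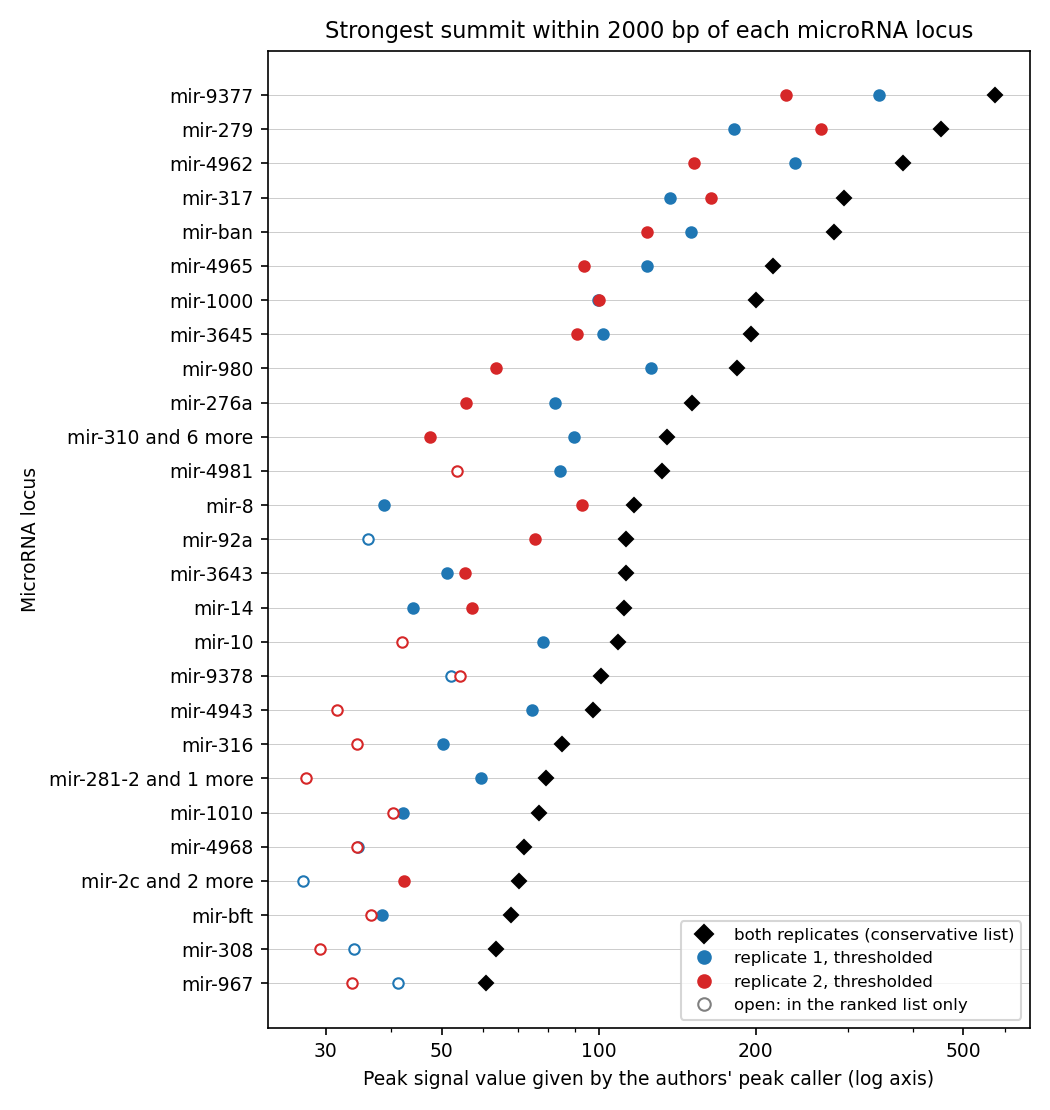
Signal value of the strongest conservative summit (diamonds) within 2000 bp of each of the 27 microRNA loci, on a log axis, with the overlapping peak of replicate 1 (blue) and replicate 2 (red). Open circles are peaks found only in a replicate's ranked list, below its threshold. The loci at the top, from mir-9377 (575) to mir-276a (151), have filled circles in both replicates, and open circles appear only below them.

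Several microRNAs with their own noncoding transcript, known for roles in growth and the nervous system, had summits in both replicates. At mir-279, which limits the formation of carbon dioxide sensing neurons, the signal was 452 in the conservative list, 182 in replicate 1 and 267 in replicate 2 (ranks 342, 422 and 278). This summit (chr3R:29214447) lay 1138 bp upstream of the hairpin and 115 bp upstream of the start of lncRNA:CR31044, the transcript that also holds mir-996. The summit was therefore at the annotated start of a shared transcript, in which mir-996 lies further along, beyond the 2000 bp limit. A second conservative summit, of 180, lay 4577 bp downstream of the 5' end of mir-279, past the end of the transcript, with 132 in replicate 1 and no thresholded peak in replicate 2.

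At mir-ban, which promotes tissue growth and blocks cell death, the strongest summit within 2000 bp had signals of 283, 150 and 124 in the conservative, replicate 1 and replicate 2 lists. It lay 1663 bp upstream of the hairpin inside an exon of lncRNA:CR43334, at the same base in replicate 1 and 3 bp away in replicate 2. A weaker summit lay 1969 bp past the hairpin (90.9, 40 and 55.2). This transcript has several annotated starts, and one of them lies 831 bp upstream of the strongest summit. The outermost start lies more than 10000 bp from the hairpin and had a signal of 85.6, with 50.3 in replicate 1 and no thresholded peak in replicate 2. Between that start and the hairpin the conservative list held further summits of 83.5, 114 and 71.5.

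At mir-1000, which represses the vesicular glutamate transporter, the signals were 200, 99.5 and 100. The summit lay 355 bp upstream of the hairpin and 134 bp upstream of the start of lncRNA:CR45910, inside the gene msi on the opposite strand. At mir-276a, which acts in olfactory memory, the signals were 151, 82.5 and 55.6, at 848 bp past the hairpin in an exon of lncRNA:CR46006. The ranks in the replicates (857 and 1420) were further apart there than at mir-1000 (703 and 746).

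The mir-317, mir-277 and mir-34 hairpins lie in a row on 3R. The summit of mir-317 lay 1784 bp upstream of it in an exon of the neighbouring lncRNA:CR45054, with signals of 295, 137 and 164. A stronger summit of 857 (487 and 371 in the replicates) lay 3680 bp upstream of mir-317 in an intron of that same noncoding gene. By contrast mir-34, which acts in the ageing brain, and mir-277, which acts on amino acid metabolism, had 1 conservative summit of 73.2 between them that reached the threshold in neither replicate. Replicate 1 alone had a peak of 42.8 within 500 bp of the start of their transcript, lncRNA:CR43459.

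**Figure D3:**
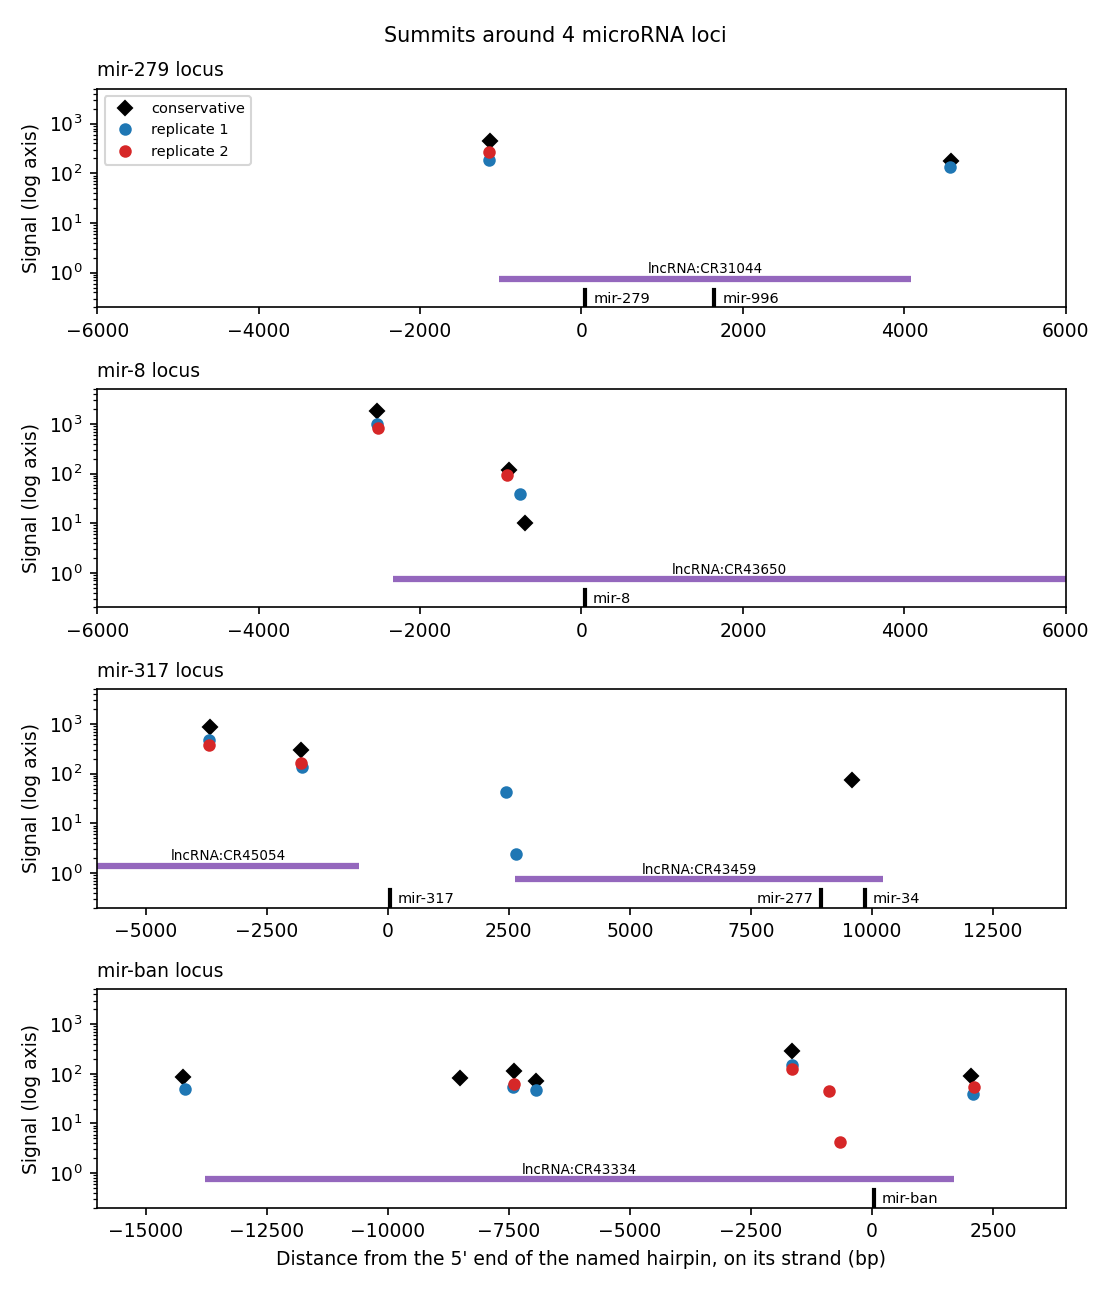
Peak signal (vertical axis, log scale) against distance from the 5' end of the named hairpin on its own strand (bp) at 4 loci, for the conservative list (black diamonds), replicate 1 (blue) and replicate 2 (red). Purple bars are annotated noncoding genes on the same strand and black ticks are hairpins. At mir-279 (452) and mir-8 (1797) the strongest summit is just upstream of an annotated start of the transcript, and at mir-ban (283) it lies 1663 bp upstream of the hairpin.

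At mir-8, the fly member of the miR-200 family that promotes body growth, the outer of the annotated starts of lncRNA:CR43650, its transcript, had the highest signal among the noncoding host transcripts. The signal was 1797, with 980 and 823 in the replicates, and it ranked 86 of 3006 (86 and 76 in the replicates). This summit lay 195 bp upstream of that start and 2532 bp upstream of the hairpin, and so outside the 2000 bp limit. Nearer to the hairpin, at 901 bp and 158 bp upstream of the inner start, the signals were 117, 38.8 and 92.8. A second entry of 10.2 at 700 bp overlapped the same replicate peaks. Such pairs of overlapping entries were also listed at mir-967 (60.9 and 10.9), mir-4968 (71.8 and 42) and mir-2c (70.5 and 60.3).

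At mir-14, which limits cell death and fat storage, 4 conservative summits lay between 1902 bp upstream and 948 bp downstream of the hairpin. Their signals were 112, 79.1, 99.3 and 77.4 in this order. Only the first was in both replicate lists (44 and 57.3). The second was in replicate 2 (53.5), and the third and the fourth were in replicate 1 (74.6 and 43.6). The second and the third lay 110 bp upstream and 429 bp downstream of a start of lncRNA:CR43651, the transcript of mir-14.

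In the mir-310 cluster, whose members mir-310 to mir-313 act in Hedgehog signalling and in the germ line, 7 hairpins shared 2 summits. The stronger one lay 71 bp past the last hairpin of the cluster and 90 bp upstream of the start of qsm, a protein-coding gene, with signals of 135, 89.7 and 47.5. The weaker one of 73.5 lay between hairpins and reached the threshold in neither replicate. At mir-980, which limits memory in the fly brain, the summit (184, 126 and 63.6) lay 1530 bp past the hairpin in an intron of the neighbouring gene ewg.

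Introns of protein-coding genes held the rest of the microRNAs found in all 3 lists. The strongest of all summits beside a hairpin was at mir-9377 in Tis11, the gene of a protein that binds AU-rich messenger RNA elements, with signals of 575, 344 and 229 (ranks 281, 273 and 316). It lay 34 bp past the hairpin and 4768 bp from the nearest start of Tis11. A second summit in the same intron, at 1345 bp, had 188, 85.2 and 101. At mir-4962 in Tlk, a kinase gene, the signals were 383, 238 and 152 at 1801 bp past the hairpin. A further summit of 101 lay on the mir-4962 hairpin itself and was in replicate 2 (54.9) but under the threshold in replicate 1. At mir-4965 in Nup153, a nuclear pore gene, they were 216, 124 and 93.6 at 1868 bp past the hairpin. At mir-3645 in Mlc-c, a myosin light chain gene, they were 196, 102 and 90.7, with the summit 462 bp downstream of a start of that host. At mir-3643 in OstDelta, a gene of the oligosaccharyltransferase, they were 113, 51.3 and 55.5, within 500 bp of a start of the host. The start nearest to that summit was that of another gene, asRNA:CR44416, 44 bp away.

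The remaining microRNA genes near a conservative summit were found in 1 replicate list or none, and their signals ran from 60.9 to 132 at the strongest summit of each. In replicate 1 but not replicate 2 these were mir-4981, mir-10, mir-4943, mir-316, mir-281-1, mir-281-2, mir-1010 and mir-bft. In replicate 2 but not replicate 1 they were mir-92a, mir-2c, mir-13a and mir-13b-1. In neither were mir-9378, mir-4968, mir-34, mir-277, mir-308 and mir-967. Found in a replicate list but not in the conservative list were mir-4987, mir-2b-2, mir-3642 and mir-954 in replicate 1 and mir-375, mir-282 and mir-2496 in replicate 2, with signals of at most 51.4.

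Start sites held nearly the same share of the summits beside microRNAs as of all summits, and introns and noncoding exons did not. Of the 39, 18 (46.2%) lay within 500 bp of a transcription start site (TSS), against 47.0% of all 3006 summits, 8 lay in introns (20.5% against 34.4%) and 5 between genes (12.8% against 13.6%). Another 7 (17.9%) lay in exons other than coding or UTR exons, against 1.23% of all summits. Of the 258 hairpins, 42 lie in exons of noncoding genes themselves, and the part this plays was not tested. Of the 18 near a TSS, 16 were near the start of a gene that holds the hairpin on the same strand, and 10 were near the start of a coding gene. At mir-281-2 and mir-92a that start of the host lay past the hairpin.

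**Figure D4:**
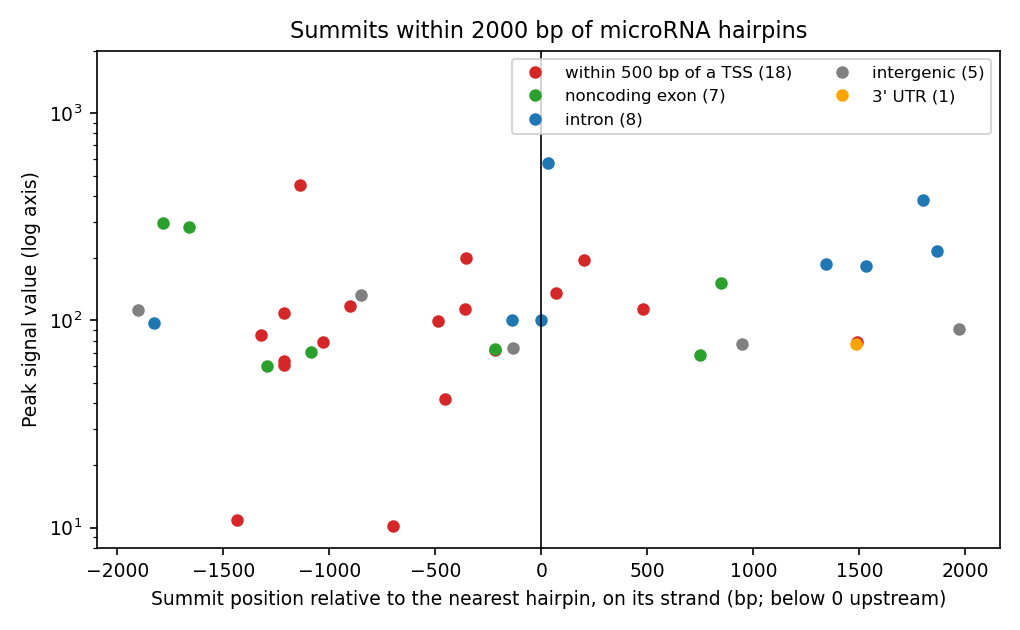
Position of the 39 conservative summits relative to the nearest hairpin, in bp on the strand of the hairpin (horizontal axis, negative upstream), against signal value (log axis), coloured by annotation class. Summits lie on both sides, 24 upstream and 14 downstream, and those above 150 fall in introns, noncoding exons and near start sites.

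Relative to the hairpin, 24 summits lay upstream, 14 downstream and 1 inside, which is 63.2% upstream of those on either side (47.3 to 76.6). The replicate lists gave 61.3% and 60.9%. All 3 intervals include an even split. The paired entries at mir-8, mir-967, mir-4968 and mir-2c in the conservative list all lay upstream. They were counted as separate summits here and in the shares by annotation class. The median distance to the nearest hairpin was 1028 bp, and 13 of the 39 lay within 500 bp.

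The share differed with the position of the hairpin in the annotation. Of 42 microRNA genes in an exon of a noncoding host, 14 (33.3%, 21 to 48.4) had a conservative summit, 9 a replicate 1 summit and 11 a replicate 2 summit. Counted as loci these were 11 of 28 (39.3%, 23.6 to 57.6). Of 99 in an intron of a coding host, 13 (13.1%, 7.84 to 21.2) had one, with 10 and 6 in the replicates. Only 1 of 36 in an exon of a coding host (mir-4943) and 1 of 27 that were only antisense to a gene (mir-980) had one, and 0 of 3 in an intron of a noncoding host. Of 51 outside other genes 9 had one (17.6%), but 7 of these were the mir-310 cluster, and counted as loci they were 3 of 33. The order of the classes was seen after the values and was not tested.

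**Figure D5:**
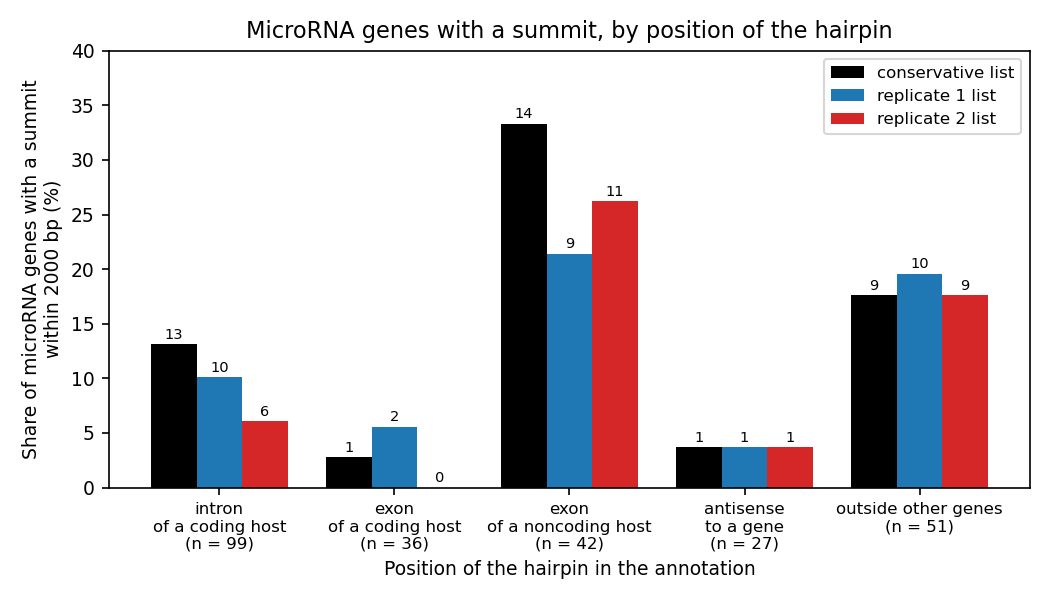
Share of microRNA genes with a summit within 2000 bp (vertical axis, %), by the position of the hairpin in the annotation, in the conservative list (black), replicate 1 (blue) and replicate 2 (red). The number above each bar is the count of genes, and n is the number in the class. Exons of noncoding hosts are highest in all 3 lists, with 14, 9 and 11 of 42 genes, and a class of 3 genes is not drawn.

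An intronic microRNA can be transcribed from the promoter of its host, so the start sites of the hosts were examined over any distance to the hairpin. Every annotated start of a host counted, also one past the hairpin, whose transcript would not include it. This was so at for (mir-4972), Oda (mir-281-2) and jigr1 (mir-92a), for example. Their summits lay 4479, 1489 and 478 bp past the hairpin. Of 92 protein-coding hosts of an intronic microRNA, 25 (27.2%) had a conservative summit within 500 bp of a TSS, 20 (21.7%) had one in each of the replicate lists, and 16 had one in all 3. Over all 13968 protein-coding genes the shares were 10.9%, 7.90% and 8.16%. The hosts were longer than other genes, with a median of 14880 bp against 2164 bp, and had a median of 2 start sites against 1. Of the 46 hosts at or above their own median length 15 (32.6%) were bound, against 22% of the 1377 coding genes at least that long. Of the 46 shorter hosts 10 (21.7%) were bound, against 9.71% of 12591 shorter coding genes. The share was higher among hosts on both sides of this length, but lengths within each side and numbers of start sites were not matched. The difference was not tested.

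The highest signals were at a pair of homeodomain genes. At hth, the host of mir-4944 and the gene of a homeodomain partner of Extradenticle, the signal was 2214, with 1065 and 1106 in the replicates. At tup, the host of mir-4946 and a LIM-homeodomain gene, it was 1772, with 845 and 878. These summits lay 101356 bp and 14394 bp from the hairpins. The next were CASK, a scaffold protein gene and the host of mir-999 and mir-4969 (324, 180 and 145), Kpc1, the host of mir-3644 (296, 185 and 113), and Mlc-c, given above.

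The other intronic hosts with a summit in all 3 lists had conservative signals from 89.5 to 165. They were rdgA, MRP, for, CG45092, chk, Mob2, CG7029, Usp12-46, OstDelta, PAPLA1 and spi. Of these, chk and CG45092 shared 1 summit, as did CG7029 and Usp12-46. The EGF receptor ligand gene spi, host of mir-2a-1, mir-2a-2 and mir-2b-2, was the weakest, with 89.5, 38.4 and 72.5. Hosts with a conservative summit that was missing from at least 1 replicate list were jigr1 (113), Oda (79.1), Atet (78.5), SKIP (74.6), the sterol regulator SREBP (69.2), RpS23 (63.5), bun (60.9), the talin gene rhea (60.8) and CG17124 (49.6). Of 35 coding hosts with the microRNA in an exon, 7 were bound (20%), which were Btk (280), CG5953 (180), CG6231 (111), Amun (98.8), Nrx-1 (96.9), CG3764 (92.2) and kuz (59.7).

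Noncoding hosts of exonic microRNAs stand for annotated primary transcripts. Of 31 such hosts, 8 (25.8%) had a conservative summit within 500 bp of a start, 10 a replicate 1 summit and 7 a replicate 2 summit. In the conservative list the share was 5.53% of 2548 noncoding RNA genes other than microRNA genes. Length and number of starts were not matched between them, and the difference was not tested. The bound hosts had a median signal of 249, against 113 for the bound coding hosts of intronic microRNAs. After lncRNA:CR43650 of mir-8 (1797), the strongest was lncRNA:CR43314, the transcript of mir-bft, which protects sense organs from cell death. Its start had a signal of 1597, with 911 and 679 in the replicates, 17681 bp from the hairpin. At the mir-bft hairpin itself the conservative signal was 67.8, in replicate 1 (38.5) and not in replicate 2.

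A start of lncRNA:CR44206, the transcript of mir-184, a microRNA of the female germ line and early embryo, had 298, 180 and 114, and lay 7994 bp from the hairpin. The other bound starts were those of lncRNA:CR31044, lncRNA:CR45910, lncRNA:CR43651 and lncRNA:CR43334, given above, and lncRNA:CR45920 of mir-316 (85.2, and 50.3 in replicate 1 alone). Starts bound in a replicate list alone were those of lncRNA:CR43459, lncRNA:CR43857 of mir-275 and lncRNA:CR43626 of mir-282. None of the 4 noncoding hosts with a microRNA in an intron was bound in any of the 3 lists.

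The wider window of 10000 bp around each locus took in stronger peaks. Its 10 highest were at mir-4910 (4066, rank 6), mir-4981 (2756), mir-8 (1797), mir-1013 (1779, in an intron of zfh1), the mir-972 cluster (1283, in an intron of CG32532), mir-4948 (1251, at the start of dco), mir-375 (908, in an intron of aru), mir-317 (857), mir-281-1 (667, in an intron of Oda) and mir-4962 (651, in an intron of Tlk). All 10 were in both replicate lists. In all, 91 of the 201 loci had a summit within 10000 bp, and the median distance from a locus to the nearest summit was 11842 bp, against 10225 bp for the short RNA genes.

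In a hand-picked list of microRNAs with roles in growth, metabolism and the nervous system, 11 of 25 genes lay near a conservative summit (44%). The replicate lists each gave 10, and 9 were in all 3 lists. Counted as loci the conservative share was 7 of 17, since mir-310 to mir-313 stand together. The 11 genes were mir-ban, mir-14, mir-276a, mir-277, mir-279, mir-310, mir-311, mir-312, mir-313, mir-316 and mir-317. No conservative summit lay within 2000 bp of mir-276b, mir-278, mir-996, mir-282, mir-284, mir-305, mir-275, mir-315, mir-274, mir-958, mir-12, mir-283, mir-304 and mir-306. The list was drawn up with earlier results of these data known. It leaves out mir-8, mir-34, mir-124 and mir-9a, which have roles of this kind. Of 32 genes conserved across bilaterian animals 7 had one (21.9%), with 5 and 3 in the replicates. These were mir-8, mir-10, mir-34, mir-92a, mir-bft, mir-281-1 and mir-281-2. Only mir-8 of these was in all 3 lists. The share over all microRNA genes was 14.7%, as given above, and the differences were not tested.

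Several well-known microRNAs had no summit near the hairpin in any list. The nearest conservative summit was 86104 bp from mir-let7, the timing microRNA, 58524 bp from mir-1 of muscle, 52106 bp from mir-124 of neurons, 18004 bp from mir-7 and 4325 bp from mir-9a of sense organ precursors. None of the 8 genes of the mir-309 cluster, which clears maternal messenger RNAs in the early embryo, had a summit within 2000 bp, and the nearest to mir-309 was at 29550 bp. None of the 19 genes of clusters with testis-biased expression had one either. Counted as loci, these groups were only 1 and 3, and 13.4% of all loci had a conservative summit. So few loci cannot show a lower share. Of a list of 14 mirtrons (mir-1003 to mir-1016), whose hairpins are released by splicing, mir-1010 had one (7.14%, against 14.7% of all microRNA genes). Members outside this list were not sorted by this type, and the difference was not tested. Of 13 genes of the K box family, which share a seed, 4 had one (mir-2c, mir-13a, mir-13b-1 and mir-308), and none of the 4 was in all 3 lists. The first 3 of these share their summits, and counted as loci 2 of 7 had a summit. The seed is also carried by mir-5, which was not in this list and had no summit within 2000 bp.

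Genes that make microRNAs or carry out silencing were examined at their start sites. Of 25 such genes 6 (24%) had a conservative summit within 500 bp of a TSS, against 10.9% of all coding genes, 5 (20%) in replicate 1 and 3 (12%) in replicate 2. The strongest was AGO1, the Argonaute that holds microRNAs, with signals of 2628, 1563 and 1093 (ranks 42, 37 and 50), 82 bp upstream of a start. Next came Not1, the scaffold of the CCR4-NOT complex (1220, 632 and 288), 495 bp downstream of a start, and gw, the gene of the silencing effector GW182 (637, 385 and 248), 42 bp downstream of one. These 3 genes were the only ones of the list found in all 3 peak lists.

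The poly(A) binding protein gene pAbp (103, and 51.6 in replicate 1) and the decapping enzyme gene DCP2 (70.2, and 44.2 in replicate 1) were in the replicate 1 list but not in the replicate 2 list. The gene of the Dicer-2 partner R2D2, r2d2 (66.5), was in neither. The genes of the hairpin-cutting steps, drosha, pasha, Dcr-1 and loqs, and of hairpin export, Ranbp21, had no summit within 500 bp of a start in any of the 3 lists. The same held for Nbr, Tailor, Dcr-2, AGO2, Hen1, Not3, Pop2, twin, Rga, me31B, DCP1, Ge-1, Patr-1 and pcm.

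The sequence under the summits was compared with that under all summits of the same list, within 150 bp to each side and on both strands. GAGAGAG was present at 12 of the 39 summits beside microRNAs (30.8%, 18.6 to 46.4), against 22.8% of all 3006. Replicate 1 gave 38.7% against 27.7%, and replicate 2 gave 20.8% against 22.6%. The shorter GAGAG, contained in it, was at 61.5% against 54.7%. TATAAA was at 35.9% against 31.3% and GGTCACA at 2.56% against 4.29%. CAGGTAG and TATCGATA were at 0 of 39, which allows up to 8.97% by the Wilson interval, against 1.56% and 2.76% of all summits. The median GC content of these windows was 45% beside microRNAs and 43% over all summits. A match says only that these letters are in the window.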

How the data were processed

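The data were ChIP-seq peak lists of 2 replicates of whole embryos, in dm6 per the labels. Column 5 of the deposited lists holds a score of up to 1000, and no thresholded peak scored below 830. Column 7 holds the signal value the authors' peak caller gave each peak. Neither aligner nor peak caller is given in the sources used here. The series' ranked lists hold 16 unnamed columns of single inputs, which were not used. Summits were peak start plus the deposited offset, and 6 conservative peaks off the arms were left out. Gene models came from Ensembl release 115 without transposable elements and without entries for mature microRNA products, and sequence from RefSeq. Peaks overlapped when they shared at least 1 bp. A TSS was the 5' end of any transcript, and a host was a gene on the same strand that spans the hairpin. Scripts ran in Python 3.11.15 with SciPy 1.17.1 and were tested on simulated data. No test between groups was possible with 1 group. Named with values were loci in all 3 lists, the 10 strongest loci within 10000 bp and bound hosts and silencing genes, others by name. Members, lists and motifs were chosen with earlier results of these data known. Alternatives were other distances, lists, joining distances, signal limits and motifs.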

Additional observations from a re-analysis of the deposited data

How the results depend on the processing

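The count of 38 microRNA genes depended on the distance allowed, with 15 at 500 bp, 22 at 1000 bp and 71 at 5000 bp, and the count of 27 loci became 11, 15 and 55. Peaks above the median signal of 100 gave 24 of the 38 genes and 16 of the 25 bound hosts of intronic microRNAs. Hosts with a summit within 200 bp of a TSS numbered 15. GAGAG in place of GAGAGAG gave 61.5%. With 1 replicate left out the values ran from 27 to 32 genes, 19 to 25 loci, 20 to 20 hosts, 3 to 5 silencing genes (3 without replicate 1) and 20.8% to 38.7% of summits with GAGAGAG. In the other alternatives run, counts stayed within 1.5 times the main count and the motif share within its interval. The other thresholded list of both replicates gave 45 genes, 37 of them among the 38. Adding 124 ranked peaks with a score of at least 830 that are not in the conservative list gave 40 genes. No paired analysis was possible because both replicates belong to 1 group. Without depth or a control library, a missing peak does not show that the protein was absent. Counts at starts are limited to annotated ones (51 microRNA genes lie outside other genes), and expression was not measured.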

Other observations

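In replicate 2, a pair of peaks of 45.4 and 4.15 lay 882 bp and 667 bp upstream of the 5' end of mir-ban. No peak was there in the conservative list or in replicate 1. The other thresholded list of both replicates held 6 summits within 2000 bp of mir-ban, the nearest at 617 bp. Near mir-9a the conservative summit of 125, 4325 bp upstream of the hairpin, was in replicate 2 (90.6) and not in replicate 1, where the nearest thresholded summit was 25420 bp away. The start of HnRNP-K, the host of mir-7, had a peak in replicate 1 alone (55.5), and that of grp, the host of mir-79, mir-306, mir-9b and mir-9c, in replicate 2 alone (20.3).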
